A study of Rattus norvegicus with 6 samples.

Results

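The genes described here are the transcription factors that set intestinal identity and steer its lineage choices, given as a list of 9 genes: Cdx1, Cdx2, Hnf4a, Gata4, Gata6, Klf4, Klf5, Atoh1 and Hes1. Members were the probes whose RefSeq accession belongs to one of these genes, and all probes of each gene were kept. That rule found 11 probes, printed on 20 spots, for 7 of the 9 genes, out of 41012 probes on the array, and all 11 were among the 31367 tested. No probe carried an accession listed for Cdx1 or Atoh1, so both were not analysed here.

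Expression in the jejunum was compared between 2 groups of 3 samples, each hybridised to its own 1-colour Agilent rat array. The animals of both groups were male Sprague-Dawley rats, 6 weeks old and weighing 200 ± 20 g, kept beforehand at 25°C and 60% relative humidity. Rats of the S3d group were stressed by heat and shaking (35°C and a vibration of 0.1 g for 2 h per day on 3 days), and the control group was not. Every sample pooled RNA of 3 rats, so p-values measure the spread between pooled samples of whole, minced jejunum, in which fewer cells of a type and less RNA per cell cannot be told apart.

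Cells of the gut lining take and keep their intestinal character from a small network of transcription factors. The caudal homeobox factors CDX1 and CDX2 separate intestine from stomach, the nuclear receptor HNF4A drives absorptive enterocyte genes, and GATA4 marks the proximal intestine while GATA6 is found along its whole length. KLF5 is known from dividing crypt cells and KLF4 from differentiated villus and goblet cells, and Notch signalling induces HES1, which holds back ATOH1, the switch to secretory cells.

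Each level is the log2 of a probe's processed signal less the 75th percentile of its array, so 0 is the signal that 75% of spots do not exceed, and a difference of 1 is a doubling. A difference is the mean of the S3d arrays minus that of the control arrays, as the scanner files are labelled. For most genes these directions oppose those of the study, whose table of normalized values carries the 2 sets of labels exchanged relative to the scanner files. Among the factors, Cdx2 (-0.12) and Klf4 (-0.14) have the same sign in that table as here. Each column of that table, named for one group, follows a scanner file of the other group (Spearman's rho across probes of 1 against 0.942 to 0.952 for its own). Which of the 2 sets of labels is right was not tested. No sample was reassigned, and each direction below therefore stands for a label of a scanner file.

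The arrays differed in other ways along with their labels. On the control arrays the 75th percentile lay at a processed signal of 414.8 to 430, against 1457.7 to 1558.3 on the S3d arrays. Each group had a slide to itself, with 450 days between the scans, so slide, scan and group cannot be told apart. The change also followed the level. Among the 1215 tested probes with a mean level from 4 to 6 the median difference was -0.50, and 76.3% were below 0, whereas among the 7152 probes under -4 the median was 0.72. Quantile normalization brought these medians to -0.03 and 0.18. Over all tested probes the median was 0.08 in the values reported here and 0.01 under quantile normalization.

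One library stood apart. S3d replicate 1 carried high levels of pancreatic acinar markers, whose summed linear level ran from 0.279 to 0.590 on the control arrays and from 0.553 to 1017 on the S3d arrays. Amylase Amy2a3 was at 8.0 on S3d replicate 1, at -4.45 and -4.79 on the other S3d arrays and at -6.56 or less on the control arrays. Of the 5 markers 4 were tested, and limma called 0 of them (0 at an unadjusted p under 0.05). Without that array 2 were higher and 1 lower. Results of the intestinal factors are therefore given with and without that array.

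At the brightest probe of each gene, 6 of the 7 measured factors differed between the groups at an adjusted p under 0.05 (limma with Benjamini-Hochberg adjustment over all tested probes), 5 of them lower on the S3d arrays and 1 higher. That tally rests on the scanner labels and on this scaling. Quantile normalization called 4 genes (3 lower and 1 higher), cyclic loess 5 (3 lower and 2 higher), unscaled signals 6 (all higher), and the deposited table, by its own labels, 4 (1 lower and 3 higher). Among all tested probes 74% were called, 34.5% lower and 39.5% higher, so the share of factors called was close to that of the array as a whole. Counted by probe, 9 of the 11 were called, 8 lower and 1 higher. The values of 9 of the 11 probes did not overlap between the groups, against 78.9% of all tested probes. With a fold of at least 1.5 asked for as well, 4 of the 7 genes and 6 of the 11 probes had changed, 1 higher and 5 lower by probe, against 52.5% of all tested probes (29.2% higher and 23.3% lower). Leaving out S3d replicate 1 left 6 genes and 9 probes called.

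**Figure D1:**
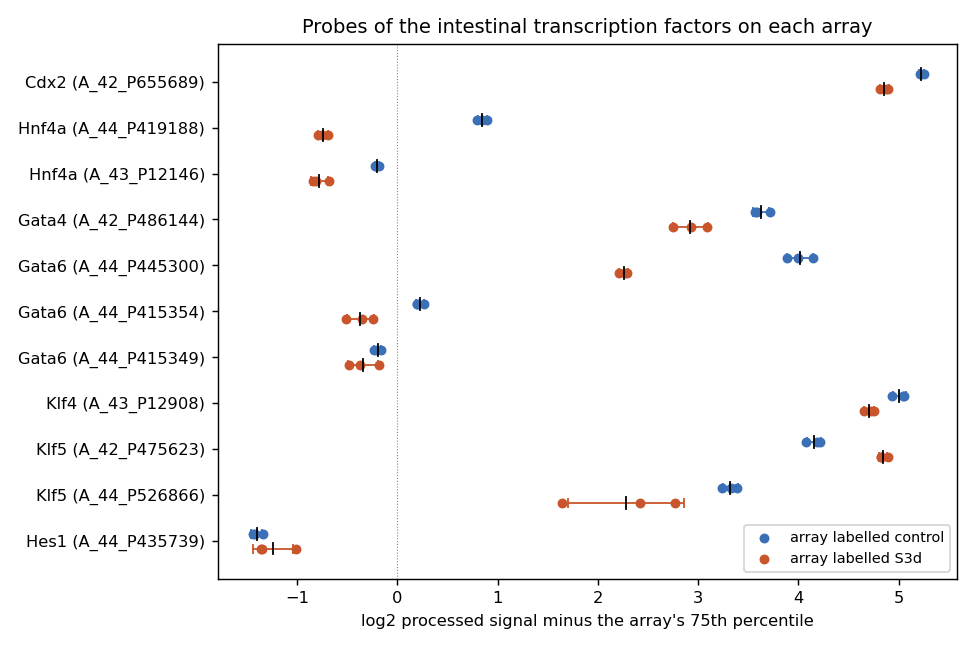
Level of each of the 11 probes on each of the 6 arrays, as log2 processed signal minus the array's 75th percentile. Points are arrays (blue, labelled control; orange, labelled S3d), black ticks are group means and horizontal bars are 1 SD over 3 arrays. The groups overlap at Hes1 and at the dimmest Gata6 probe only, and the probes of Klf5 move in opposite directions.

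Cdx2, the homeobox factor that gives the epithelium its intestinal fate, was read by 1 probe. Its level was 5.25, 5.22 and 5.21 on the control arrays and 4.81, 4.89 and 4.87 on the S3d arrays. Every S3d array lay under every control array, by a small margin. The difference was -0.37 ± 0.059 (SE, n = 3 per group), with an adjusted p of 0.0018 by limma, and -0.34 without S3d replicate 1. This direction depended on the scaling. Cdx2 is a bright probe (mean level between 4 and 6), and its difference of -0.37 was smaller in size than the median of -0.50 of the probes in that range. Under quantile normalization it was 0.12 (adjusted p = 0.17) and under cyclic loess 0.15 (adjusted p = 0.068), so no direction for Cdx2 held across the scalings.

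Hnf4a, the nuclear receptor that drives enterocyte genes, had one of the largest differences among the factors. The table of rat promoters from RefSeq lists a pair of transcription starts for it, and the 250 bases before each, read on the plus strand of build GRCr8, are shown because GATA and KLF factors are among the genes described with it. Capitals mark the letters AGATAA of the GATA motif and CACCC of the KLF motif on either strand, which do not overlap one another here.
Hnf4a upstream start, chr3:172605970-172606219: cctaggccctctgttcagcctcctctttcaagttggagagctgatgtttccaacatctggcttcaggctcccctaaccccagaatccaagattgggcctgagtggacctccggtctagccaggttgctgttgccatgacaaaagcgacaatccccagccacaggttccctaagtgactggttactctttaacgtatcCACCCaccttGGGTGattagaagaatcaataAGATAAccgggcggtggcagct
Hnf4a downstream start, chr3:172641586-172641835: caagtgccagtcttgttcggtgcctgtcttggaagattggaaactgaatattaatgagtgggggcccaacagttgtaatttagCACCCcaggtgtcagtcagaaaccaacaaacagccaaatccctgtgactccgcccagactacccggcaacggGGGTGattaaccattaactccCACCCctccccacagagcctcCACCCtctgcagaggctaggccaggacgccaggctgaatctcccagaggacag

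The upstream window holds 1 match to AGATAA, 22 bases before the start, and 2 matches to CACCC. The downstream window holds 4 matches to CACCC. Of the 33469 promoter windows of the same length in the table, 10.3% hold AGATAA and 49.2% hold CACCC, and these matches describe letters only. The letters searched for CDX (TTTATG, in 11.4% of windows) and for HNF4 (CAAAGTCC, in 1.14%) occur in none of the 9 windows listed for the factors.

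Probe A_44_P419188 of Hnf4a stood at 0.89, 0.85 and 0.80 on the control arrays. On the S3d arrays it stood at -0.69, -0.79 and -0.75. The 2 sets of arrays were far apart relative to their spread, with SDs of 0.047 and 0.048. The difference was -1.59 ± 0.063 (SE, n = 3 per group), a level 3.01-fold lower on the S3d arrays (limma, adjusted p = 1.4e-05), and 4.9% of all tested probes had a lower difference. It kept its direction and its call under quantile normalization (-1.58), cyclic loess (-1.57) and median centring (-1.77), and without S3d replicate 1 (-1.62). Normexp kept the call with an offset of 50 (-1.37, adjusted p = 0.039) and lost it with 0 (-1.45, adjusted p = 0.072). Before scaling, its processed signal was 771, 770 and 749 in control and 901, 900 and 929 in S3d. Unscaled signals thus gave 0.25 (adjusted p = 0.0064), so the direction comes with the scaling between slides.

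The other Hnf4a probe, A_43_P12146, is printed on 10 spots of every array, which gives the error within an array. Its mean was -0.18, -0.21 and -0.22 on the control arrays and -0.68, -0.84 and -0.81 on the S3d arrays. The spots of one array had an SD between 0.031 and 0.067, and the highest spot of any S3d array, at -0.60, lay under the lowest of any control array, at -0.28. The groups differed by -0.58 ± 0.068 (SE, adjusted p = 0.00046), or 1.49-fold, and by -0.62 without S3d replicate 1. Both probes of Hnf4a thus differed in the same direction, by unequal amounts. The difference between them on one array went from 1.05 ± 0.029 (SD, n = 3) in control to 0.03 ± 0.038 in S3d, a change of -1.02 that no factor applied to a whole array alters. Only this change is read, since levels of different probes are not comparable. Its two-sided exact permutation p was 0.1, the smallest that 3 arrays against 3 can give.

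**Figure D2:**
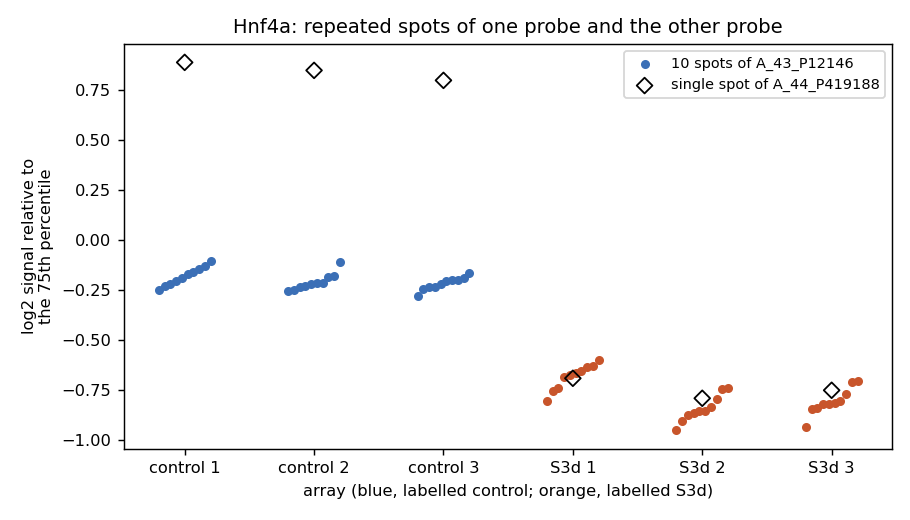
Hnf4a on each array (x axis), as log2 signal relative to the array's 75th percentile (y axis). Filled points are the 10 spots of probe A_43_P12146, spread sideways in order of value, and open diamonds are the single spot of probe A_44_P419188. The diamonds stand 1.05 above the spots on average on the control arrays and 0.03 above them on the S3d arrays.

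Gata4, the zinc-finger factor of the proximal intestine, was at 3.57, 3.59 and 3.72 on the control arrays. On the S3d arrays it was at 3.09, 2.75 and 2.93. The S3d arrays all lay lower, and they spread more widely (SD 0.166 against 0.081). The difference was -0.71 ± 0.103 (SE, adjusted p = 0.0012 by limma), or 1.63-fold, and -0.79 without S3d replicate 1. Quantile normalization gave -0.42 (adjusted p = 0.011), and in the range of 2 to 4 in which the probe lies the median difference of all probes was -0.26.

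Gata6, its relative along the whole intestine, was read by 3 probes. A_44_P445300, the brightest, was at 4.15, 3.89 and 4.0 in control and at 2.27, 2.29 and 2.21 in S3d. This was the largest difference of the 11 probes under this scaling, of -1.76 ± 0.085 (SE, adjusted p = 2.1e-05), or 3.39-fold, and 3.8% of all tested probes had a lower one. Without S3d replicate 1 it was -1.77. Quantile normalization gave -1.51 and cyclic loess -1.46, where the brighter Hnf4a probe had the larger difference (-1.58 and -1.57). Before scaling, the processed signal of A_44_P445300 was 7371, 6318 and 6895 on the control arrays and 7012, 7605 and 7198 on the S3d arrays. Those signals overlapped, on arrays whose 75th percentiles did not, so the size of the difference comes with the scaling between slides.

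The remaining Gata6 probes showed less. A_44_P415354 was at 0.20, 0.27 and 0.20 in control and at -0.35, -0.24 and -0.51 in S3d. The difference was -0.59 ± 0.086 (SE, adjusted p = 0.0012), and also -0.59 without S3d replicate 1. For A_44_P415349 the levels were -0.20, -0.16 and -0.23 in control and -0.48, -0.18 and -0.37 in S3d. These overlapped, and the difference of -0.15 (95% interval -0.37 to 0.07) was not called (adjusted p = 0.18). Without S3d replicate 1 it was -0.08. It was called without S3d replicate 2 (-0.23, adjusted p = 0.048), under median centring (-0.32) and under normexp with bright backgrounds reset (-0.24). No Gata6 probe was higher on the S3d arrays in any scaling between arrays, other than with none.

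The GATA genes were also set against each other on the same array, which removes any factor common to that array. Gata4 minus Gata6, by their brightest probes, was -0.39 ± 0.168 (SD, n = 3) in control and 0.67 ± 0.183 in S3d. The control arrays ran from -0.58 to -0.28 and the S3d arrays from 0.47 to 0.82, without overlap. The change of 1.05 reached the smallest two-sided exact permutation p for 3 against 3, 0.1, which is also its Benjamini-Hochberg value over the 3 pairs of genes compared. With either of the other Gata6 probes the pair would change in the opposite direction, since they differed by -0.59 and -0.15 and Gata4 by -0.71. Hnf4a minus Cdx2, taken the same way, went from -4.38 ± 0.028 to -5.60 ± 0.093, a change of -1.23 (exact p = 0.1). A drift that follows the level stays in this pair, whose probes lie in different ranges of level. Under quantile normalization Hnf4a differed by -1.58 and Cdx2 by 0.12, further apart than here. With the dimmer Hnf4a probe, which differed by -0.58 against -0.37 for Cdx2, the change would be smaller.

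Klf4, the Krüppel-like factor of differentiated villus and goblet cells, was at 5.05, 5.04 and 4.93 on the control arrays. Its S3d levels were 4.72, 4.75 and 4.65. The groups did not overlap, and the difference was -0.30 ± 0.067 (SE, adjusted p = 0.007 by limma), -0.31 without S3d replicate 1. As for Cdx2, another bright probe, the direction turned with the scaling: the difference was 0.13 under quantile normalization (adjusted p = 0.15) and 0.19 under cyclic loess, where it was called (adjusted p = 0.039).

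Klf5, the Krüppel-like factor of dividing crypt cells, was the one gene whose brightest probe was called higher on the S3d arrays. Probe A_42_P475623 was at 4.08, 4.18 and 4.21 in control and at 4.82, 4.89 and 4.82 in S3d. All S3d arrays lay above all control arrays, with a difference of 0.69 ± 0.066 (SE, adjusted p = 2e-04), or 1.61-fold. It was larger under quantile normalization (1.12) and cyclic loess (1.14), and 0.70 without S3d replicate 1.

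The second Klf5 probe, A_44_P526866, went the other way. It was at 3.33, 3.39 and 3.24 in control and at 1.64, 2.42 and 2.77 in S3d, with the lowest value on S3d replicate 1, the array with the pancreatic markers. The difference was -1.05 ± 0.281 (SE, adjusted p = 0.015), and -0.73 without that array (adjusted p = 0.0044). Under quantile normalization it was -0.82 and missed the threshold (adjusted p = 0.05 when rounded), and so it did by the methods' one-way analysis of variance (adjusted p = 0.052). The mean over both probes differed by -0.18 (adjusted p = 0.31), so the direction given for Klf5 rests on the choice of its brighter probe. On one array the brighter probe minus the other was 0.83 ± 0.115 (SD, n = 3) in control and 2.57 ± 0.569 in S3d, a change of 1.73 (exact p = 0.1).

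Klf4 minus Klf5, by their brightest probes, was 0.85 ± 0.123 (SD, n = 3) in control and -0.14 ± 0.037 in S3d. The change of -0.99 stood between -1.08 and -0.95 in the other scalings and background corrections of the scanner files, and between -1.06 and -0.93 when one array was left out. With the dimmer Klf5 probe the pair would change in the opposite direction, since that probe differed by -1.05 and Klf4 by -0.30.

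Disagreement between probes of one gene was common on these arrays. Of 2626 genes with more than 1 tested probe, 600 (22.8%) had probes called in opposite directions, as Klf5 had. The range of differences between probes was 1.02 for Hnf4a, 1.61 for Gata6 and 1.73 for Klf5, against a median of 0.78, and 61.5%, 83% and 85.8% of these genes had a smaller range.

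**Figure D3:**
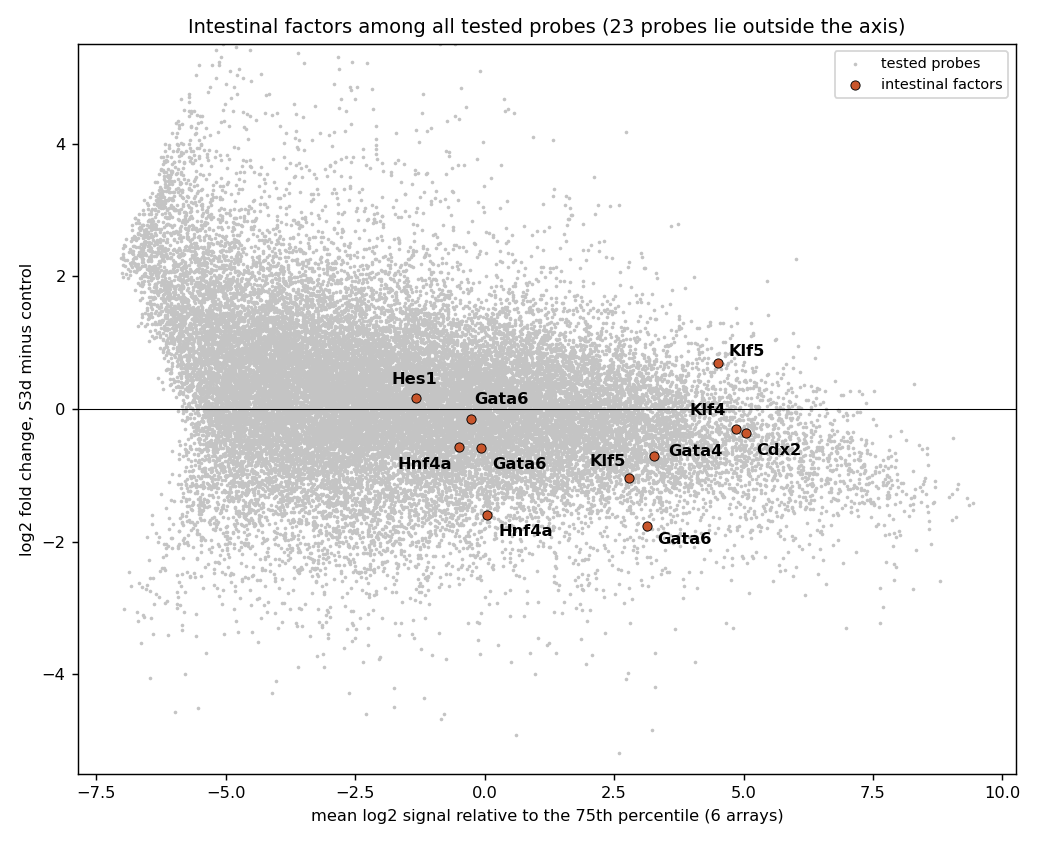
Log2 fold change (S3d minus control, y axis) against the mean level over the 6 arrays (x axis) for the tested probes (grey) and the 11 probes of the intestinal factors (orange, named). The axis ends at 5.5 in both directions, with 23 tested probes outside it. Cdx2 and Klf4 lie within the downward drift of bright probes, whose median was -0.50 at levels from 4 to 6.

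Hes1, the repressor that Notch signalling induces in absorptive progenitors, was the one factor not called. Its promoter is shown for the sites through which Notch and HES1 itself are known to act, as the 250 bases before the start on the minus strand of chromosome 11 in build GRCr8. Capitals mark the letters TGGGAA, bound by RBPJ, and CACNAG, the N-box bound by HES factors, on either strand and without overlap.
Hes1, chr11:84213046-84213295: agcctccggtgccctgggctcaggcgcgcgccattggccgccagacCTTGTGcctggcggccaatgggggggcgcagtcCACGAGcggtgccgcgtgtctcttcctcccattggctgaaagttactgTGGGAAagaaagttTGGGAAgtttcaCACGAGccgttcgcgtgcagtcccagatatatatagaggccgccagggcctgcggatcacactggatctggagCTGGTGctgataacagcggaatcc

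The window holds 2 matches to TGGGAA, starting 123 and 109 bases before the start, and 4 to CACNAG. Among all listed windows, 22.1% hold the first and 37.2% the second. Hes1 itself was at -1.44, -1.34 and -1.42 on the control arrays and at -1.36, -1.01 and -1.35 on the S3d arrays. The groups overlapped, with S3d replicate 2 alone standing higher. The difference was 0.16 ± 0.111 (SE, 95% interval -0.11 to 0.43, adjusted p = 0.24 by limma), 0.22 without S3d replicate 1 and 0.04 without S3d replicate 2. Median centring gave -0.02 and quantile normalization 0.08, neither called.

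**Figure D4:**
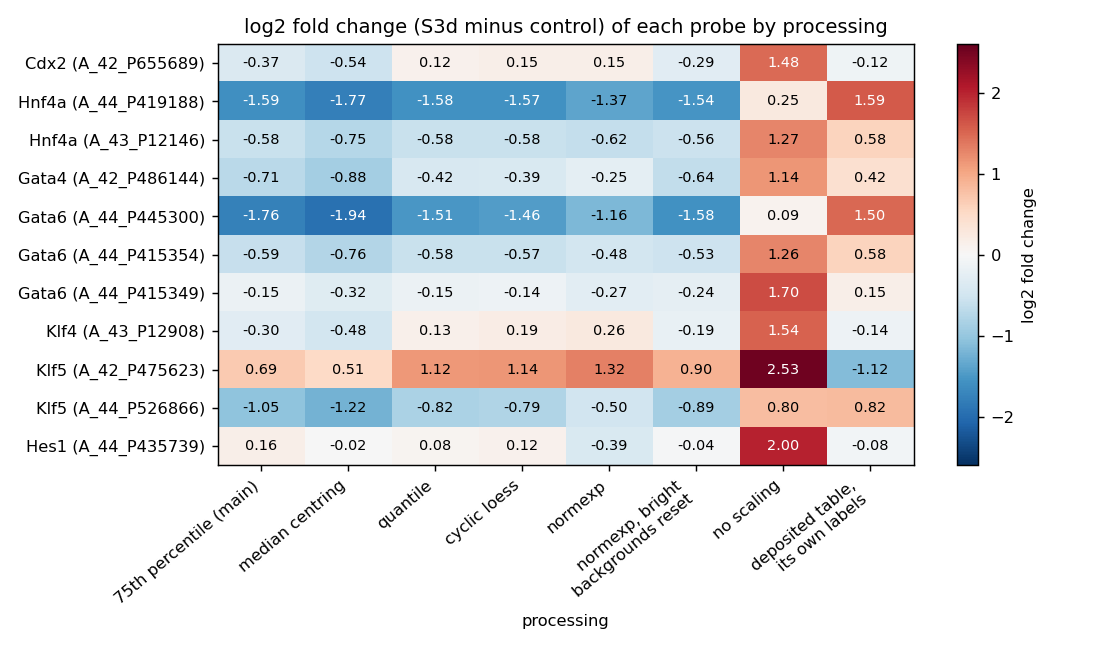
Log2 fold change (S3d minus control, printed and coloured) of each of the 11 probes (rows) under 8 ways of processing (columns). Hnf4a, Gata4 and Gata6 stay below 0 in every column but the unscaled signals and the deposited table read by its own labels, and the brighter Klf5 probe stays above 0 in every column but the latter, whereas Cdx2 and Klf4 change sign with quantile, cyclic loess and normexp (not with bright backgrounds reset).

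Genes of the Notch pathway, which decides between absorptive and secretory fate upstream of Hes1, went in both directions. Of 20 tested genes 14 were called, 10 lower and 4 higher, with a median difference of -0.22. Quantile normalization gave 10 lower and 5 higher. The share called was near the 74% of all tested probes, of which 34.5% were lower and 39.5% higher. The same shares stand for comparison with the counts of the lists below. The ligand Dll1, made by secretory progenitors, differed by -0.65 (adjusted p = 0.0021), from levels of -1.09, -0.87 and -0.87 to -1.61, -1.43 and -1.73. Jag1, another ligand, differed by 0.04 and was not called (adjusted p = 0.74).

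The receptors Notch1 and Notch2 were lower on the S3d arrays, by -0.92 (adjusted p = 0.0043) and -0.60 (adjusted p = 0.013). Their arrays did not overlap between the groups. Of the other receptors, given after their values were seen, Notch3 was also lower, by -1.50 (adjusted p = 1.6e-05), and Notch4 was higher, by 0.43 (adjusted p = 0.017). Rbpj, the DNA-binding partner of the Notch intracellular domain, differed by 0.01 at its brighter probe (adjusted p = 0.88), whereas its other probe was 0.46 higher (adjusted p = 0.003). Aph1a, a subunit of gamma-secretase, which releases that domain, had the lowest difference of the list, -1.64, and its other probe gave -1.51. Heyl, a target gene related to Hes1, had the highest at 1.02, on levels of -5.09, -4.73 and -4.35 in control and -3.56, -3.74 and -3.80 in S3d. Heyl is a dim probe whose direction turned with the background correction: normexp with bright backgrounds reset gave -0.36, also called (adjusted p = 0.0012).

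Other transcription factors of enterocytes were lower more often than higher. Of 14 tested, 8 were lower and 2 higher, with a median difference of -0.82, and under quantile normalization 7 were lower and 1 higher. The share called, 10 of 14, was near the 74% of all tested probes, of which 34.5% were lower and 39.5% higher. Whether the list leans lower than the array was not tested. Prdm1, a repressor known from the suckling to weaning switch of the gut, had the lowest difference, -1.84 (adjusted p = 3.9e-05), from 1.54, 1.58 and 1.38 to -0.55, -0.27 and -0.20. All arrays labelled S3d lay below all control arrays at this probe, and its second probe gave -1.45. Zfpm2, a cofactor of GATA proteins, had the highest, 0.56 (adjusted p = 0.025). It lost its call under quantile normalization, under median centring, and without S3d replicate 1 (0.52, adjusted p = 0.066) or 2, and normexp with bright backgrounds reset gave -0.17 (adjusted p = 0.034).

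Factors of the secretory lineages, which act after ATOH1, went in both directions: 3 of 11 tested were lower and 4 higher, with a median of -0.01. Of all tested probes 34.5% were lower and 39.5% higher. The count for the secretory factors was 4 lower and 3 higher under quantile normalization, and 6 lower and 2 higher under normexp with bright backgrounds reset. Neurod1, a factor of enteroendocrine cells, was at -1.38, -1.56 and -1.37 in control and at -2.93, -3.00 and -3.07 in S3d, a difference of -1.56 (adjusted p = 2.4e-05). Pou2f3, the factor of tuft cells, was higher by 1.03 (adjusted p = 5.2e-05), from between -3.11 and -3.07 to between -2.14 and -1.97, and by 0.23 under normexp with bright backgrounds reset (adjusted p = 0.0049). These lineages are a small fraction of jejunal cells. Marker counts beside them were 3 of 4 goblet markers lower and none higher, 3 of 4 Paneth markers lower and none higher, and 4 of 7 enteroendocrine markers lower and 1 higher. Under quantile normalization and cyclic loess the goblet and the Paneth markers each had 2 lower and 1 higher, with a goblet median of -0.32 under quantile normalization against -1.27, and without S3d replicate 1 the Paneth markers had 2 lower. Their part in the result was not tested.

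Relatives of the factors in the KLF, GATA, CDX and HES families went both ways. Of the 16 well above background on all arrays of both groups 8 were lower and 5 higher, with a median of -0.23, and 2 more were called higher that passed the filter through the S3d arrays alone. Under normexp with bright backgrounds reset 12 of all 18 tested were lower and 1 higher. Hes7, known from the segmentation clock, had the lowest difference, -3.22 (adjusted p = 1.3e-05), from 6.05, 6.36 and 6.38 to 3.18, 2.91 and 3.04. The groups lay far apart, by many times their spread. Hes7 was read by 1 probe, named by its accession, so no other probe checks this difference. Klf14 was well above background on all S3d arrays and on none of the control arrays, so its level is a bound there. On the processed signal it was at least 6.96-fold higher on the S3d arrays (adjusted p = 0.00013), with measured means of -6.67 in control and -3.27 in S3d. The call is no support, since the probe passed the filter only through the group where it is high, and the bound did not hold under normexp with bright backgrounds reset, which gave -0.02 (adjusted p = 0.73).

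Enterocyte genes of the kind that HNF4A and CDX2 are known to drive were lower in 17 of 25 tested and higher in 4, with a median difference of -0.71. Over the whole array 34.5% of tested probes were lower and 39.5% higher. Most of the enterocyte probes are bright, and their count turned with the scaling. Quantile normalization gave 8 lower and 8 higher with a median of 0.03, and cyclic loess 11 lower and 7 higher. Cubn, the receptor for intrinsic factor with vitamin B12, had the lowest difference, -1.71 (adjusted p = 0.0074), on levels of 2.23, 3.18 and 3.30 in control and 0.59, 1.64 and 1.35 in S3d.

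Genes that set other gut regions apart were read as well. The 3 tested ileal bile acid genes were all lower, against 34.5% of all tested probes, with a median of -2.41 that quantile normalization left at -2.42. Fabp6, the ileal bile acid binding protein, had the lowest difference at -2.70 (adjusted p = 0.00017). Its levels were -0.89, -0.33 and -0.51 in control and -2.92, -3.15 and -3.76 in S3d. Of the 12 tested gastric and colonic genes 7 were well above background on all arrays of both groups, and of these 2 were higher and 2 lower, with a median of -0.18. Another 3 were called higher that passed the filter through the S3d arrays alone, which gives no support to a direction. One of them, Atp4b, a subunit of the gastric proton pump, was well above background on 1 of 3 control arrays, with measured levels of -6.18, -5.66 and -6.47 in control and -2.91, -3.29 and -3.37 in S3d, a difference of 2.91 that normexp with bright backgrounds reset took to 0.20 (adjusted p = 0.11). Ghrl, the gene of ghrelin, had the lowest difference of this list, -1.58 (adjusted p = 4.4e-05).

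**Figure D5:**
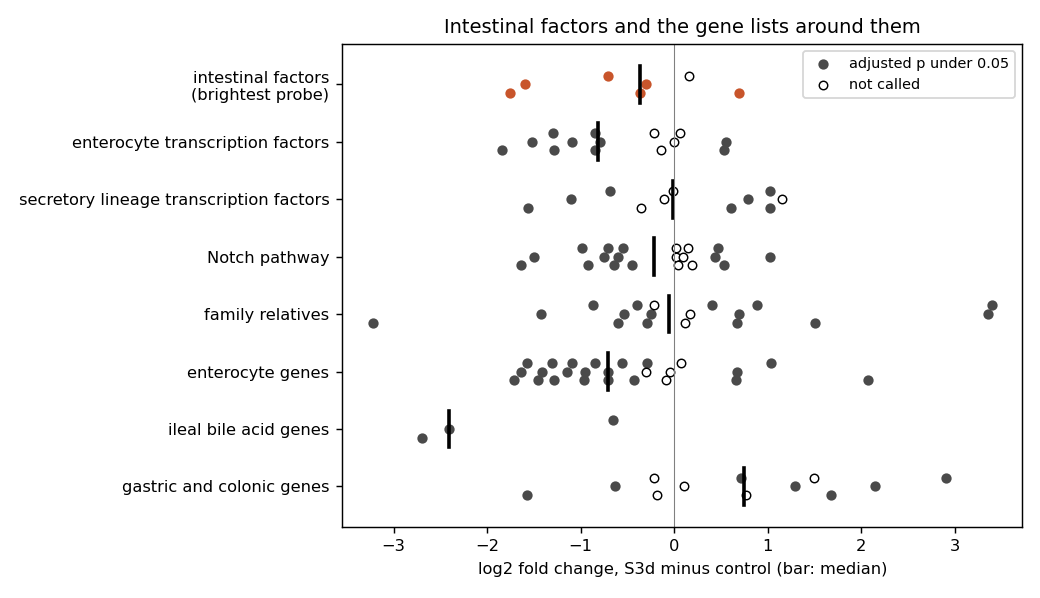
Log2 fold change (S3d minus control, x axis) of the 7 measured intestinal factors at their brightest probe (orange) and of each tested gene of 7 related lists (grey). Filled points have an adjusted p under 0.05, open points do not, and the black bar is the median of the row. The bar stands at -0.82 for the enterocyte factors and at -0.01 for the secretory factors.

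Markers of other cell types were called too, on arrays where 74% of all tested probes were called (34.5% lower and 39.5% higher). Of 6 general epithelial markers 4 were lower and 1 higher, but 1 was lower and 5 higher under quantile normalization. Proliferation markers were higher in 5 of 6 and lower in 1 (2 and 1 under median centring), and stem cell markers were higher in 2 of 6 and lower in 3. Smooth muscle markers were lower in 2 of 6 and higher in 2, leukocyte markers lower in 4 of 7 and higher in 2, endothelial markers lower in 1 of 3 above background in both groups, and neuron and glia markers higher in 2 of 4 (2 higher and 2 lower under quantile normalization). Summed linear levels ran from 579 to 581 in control and from 417 to 458 in S3d for the epithelial markers, and from 44.1 to 47.9 and from 45.0 to 48.7 for the proliferation markers. Defining markers not above background on any array included Defa5 of Paneth cells and S100b of glia. The part of cell makeup in the differences of the intestinal factors was not tested.

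The genes whose pattern over the 6 arrays was most like that of a factor were sought among 11430 named genes, by the root mean square difference after the mean of each probe was taken off. Nearest to Cdx2 were Zfp64, with a root mean square difference of 0.012, and Tmem128, with 0.022, and their differences between groups were -0.38 and -0.37. Nearest to Hnf4a were Uqcrb (0.021) and Thrap3 (0.026), with differences of -1.56 and -1.56. The 6 arrays share the split into 2 slides and 2 groups, so the likeness is a description.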

How the data were processed

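The members and gene lists were chosen with earlier results of these data known. The authors deposited Agilent Feature Extraction 10.7.3.1 output of 6 arrays, of which the intensity columns used are the processed signal, background-corrected by that program but not normalized between arrays, and, for an alternative, the median signal and local background. The authors also deposited a table of log2 values, normalized between arrays, used as an alternative under its own labels. Control spots and outlier flags were left out and spots of a probe averaged. Processed signals were log2-transformed and each array's 75th percentile subtracted. A probe was tested where all 3 arrays of either group were well above background, with limma 3.58.1 in R 4.3.3 (lmFit, eBayes, no block), with Benjamini-Hochberg adjustment, after a trial on simulated data. Genes were called on their brightest probe where the adjusted p lay under 0.05, and changed probes also had a fold of 1.5 or more. Array number limits the precision. Per the labels, 10 rats made up a group, whereas the methods give 6, fewer than 3 pools of 3 separate rats need, so whether pools shared rats is not known. Probes were named by accession through the RefSeq rat table (17512 of 41012 probes with 1 symbol). Named genes were the called genes with the highest and lowest difference of each list, core Notch genes, and the 2 nearest patterns. Some single-gene results are not reported here. Figures were drawn with matplotlib.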

Additional observations from a re-analysis of the deposited data

How the results depend on the processing

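Scaling between arrays moved the median of all tested probes by over 0.1 in 2 cases, to -0.09 under median centring and 1.93 without scaling, from 0.08. The share of changed probes that were higher was 55.7% in the values reported, 44.7% under median centring, 98.8% without scaling (28900 changed, against 16452), and 20.2% under normexp with bright backgrounds reset. Normexp as planned called 1 factor gene, 1 factor probe and 1752 changed probes with an offset of 50, and 0, 0 and 633 with an offset of 0. On control replicate 3, 11 spots had a local background over 3 times the array's median, and resetting these (chosen after seeing the data, as was cyclic loess) gave 6 factor genes, 10 factor probes and 16192 changed probes. The slide as a block could not be run, since each group lies on 1 slide.

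Without scaling, differences turned above 0 for Cdx2 (1.48), Hnf4a (0.25 and 1.27), Gata4 (1.14), Gata6 (0.09, 1.26 and 1.70), Klf4 (1.54), the dimmer Klf5 probe (0.80), Prdm1 (0.00 when rounded), Neurod1 (0.28), Aph1a (0.21), Cubn (0.14), Ghrl (0.27), Dll1 (1.2), Notch1 (0.92) and Notch2 (1.25). Median centring turned Hes1 (-0.02), Jag1 (-0.13) and Rbpj (-0.16). Quantile normalization turned Cdx2 (0.12) and Klf4 (0.13), as did cyclic loess (0.15 and 0.19). Averaging the probes turned Klf5 (-0.18). Normexp turned, with offsets of 50 and 0, Cdx2 (0.15 and 0.07), Klf4 (0.26 and 0.18), Hes1 (-0.39 and -0.28), Zfpm2 (-0.79 and -0.46), Pou2f3 (-0.39 and -0.03) and Heyl (-1.10 and -0.52), and with an offset of 50 also Klf14 (-0.86) and Atp4b (-0.64). With bright backgrounds reset it turned Hes1 (-0.04), Zfpm2 (-0.17), Heyl (-0.36) and Klf14 (-0.02), with Zfpm2 and Heyl called in the new direction, and Atp4b lost its call. Beyond the exchanged labels and the bright backgrounds, the cause was not tested.

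The deposited table, by its own labels, gave Hnf4a 1.59 and 0.58, Gata4 0.42, Gata6 1.5, 0.58 and 0.15, Klf5 -1.12 and 0.82, and Hes1 -0.08. Cdx2 (-0.12, adjusted p = 0.15) and Klf4 (-0.14, adjusted p = 0.14) kept their sign there and were not called by limma. For the other named genes the table gave Zfpm2 -0.32, Prdm1 1.81, Pou2f3 -0.86, Neurod1 1.72, Heyl -0.62, Aph1a 1.26, Klf14 -2.86, Hes7 2.76, Cubn 1.57, Fabp6 2.84, Atp4b -2.42, Ghrl 1.30, Dll1 0.72, Jag1 -0.11, Notch1 1.41, Notch2 0.88 and Rbpj -0.01. Within arrays it gave -1.09 for Gata4 minus Gata6, 0.99 for Klf4 minus Klf5 and 1.71 for Hnf4a minus Cdx2, and between probes 1.00 for Hnf4a, 0.92, 1.35 and 0.43 for Gata6 and -1.94 for Klf5.

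Leaving out one array in turn left 6 factor genes, 9 to 10 factor probes and 15984 to 16455 changed probes. Within-array changes then ran from 0.96 to 1.16 for Gata4 minus Gata6, -1.06 to -0.93 for Klf4 minus Klf5 and -1.28 to -1.18 for Hnf4a minus Cdx2. Between probes they ran from -1.03 to -0.99 for Hnf4a, from 1.43 to 1.99 for Klf5, and for Gata6 from -1.26 to -1.09, -1.69 to -1.54 and -0.51 to -0.38. Jag1 ran from -0.02 to 0.16 and Rbpj from -0.03 to 0.09. Replicate numbers are shared by the groups but did not pair the samples, with correlations of same-numbered deviations of 0.02, 0.022 and -0.049. With the replicate block 6 factor genes, 9 factor probes and 16314 changed probes were found, and of the named genes Zfpm2 lost its call (adjusted p = 0.05 when rounded).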
